A study of Mus musculus with 48 samples.

Results

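Nnt, Wdfy1 and Ide are 3 of the 48795 genes in the deposited count table of mouse cerebral cortex. They were selected by name because earlier results of the same data showed that they differ between mice of the same genotype, so the spread within groups and the levels given below are descriptions and carry no test. RNA was sequenced from 48 mice of 6 months, 1 animal per library as labelled, all listed under the strain background C57BL/6 without a substrain. The groups were Q140 x Msh3-/- (n = 8), Q140 x Msh3+/- (n = 8), Q140 (n = 8), Msh3-/- (n = 8), Msh3+/- (n = 9) and wild type (WT, n = 7). Q140 is a knock-in allele of the huntingtin gene Htt with an expanded CAG repeat, which Q140-labelled mice carry in 1 copy, and the Msh3 protein recognises mismatched DNA for repair. WT held 3 females and 4 males, Msh3+/- held 5 females and 4 males, and the other groups held 4 of each sex.

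Nnt encodes the nicotinamide nucleotide transhydrogenase of the inner mitochondrial membrane, which uses the proton gradient to make NADPH for antioxidant defence. The inbred strain C57BL/6J, from which the mouse reference genome was built, is known to carry a deletion of several Nnt exons that other C57BL/6 stocks lack. Ide encodes the insulin-degrading enzyme, a zinc protease that cleaves insulin and amyloid beta, and its copy number is known to vary between C57BL/6J mice. Wdfy1 encodes a protein with WD repeats and a FYVE domain, which binds phosphatidylinositol 3-phosphate on early endosomes and is known as an adaptor of Toll-like receptor signalling. Substrain and copy number were not tested here.

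The genes lie on 3 chromosomes (GRCm38, GENCODE annotation, all protein coding and on the minus strand). Nnt (ENSMUSG00000025453) lies at chr13:119335448-119408997, 27 Mb from Msh3 on the same chromosome. Wdfy1 (ENSMUSG00000073643) lies at chr1:79702262-79776143 and Ide (ENSMUSG00000056999) at chr19:37268743-37337852. Short stretches of their reference transcripts show the parts of each gene that its known biology turns on. For Nnt it is the joint between exons 7 and 8 of the reference model, where the exons missing from C57BL/6J are known to lie, at chr13:119381676-119381705 and chr13:119374745-119374774. Capitals mark the exon 8 side.
Nnt: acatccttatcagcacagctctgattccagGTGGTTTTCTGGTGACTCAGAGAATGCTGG
For Wdfy1 the whole stretch lies in exons 9 and 10 (chr1:79707541-79709128), and capitals mark codons of the FYVE domain's motif for lipid binding.
Wdfy1: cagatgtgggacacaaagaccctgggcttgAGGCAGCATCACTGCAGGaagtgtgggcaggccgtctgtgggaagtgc
For Ide the whole stretch lies in exon 2 (chr19:37329106-37329180), and capitals mark codons of the zinc-binding motif of the catalytic site.
Ide: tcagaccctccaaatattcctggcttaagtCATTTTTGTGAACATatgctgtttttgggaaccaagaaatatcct
These letters are the reference's. The count table gives 1 number per gene and mouse, so it does not show which Nnt exons or which Ide copies were read.

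Deposited counts summed to between 35.9 and 64.5 M per library. Levels below are read counts scaled to a common library size with TMM factors (CPM). Msh3 RNA was higher, not lower, with altered alleles: 99.1 to 125 CPM with 2, 61.2 to 77.4 with 1 and 21.8 to 25.9 with none, so "Msh3-/-" and "Msh3+/-" are used as the labels' names. Abhd1, a gene whose RNA was higher in most Q140-labelled mice, had 3.63 CPM or less in 4 of 24 Q140-labelled mice, below the largest gap in its levels, and no mouse without Q140 lay above that gap. In 3 of these 4 it lay within the range of mice without Q140, which reached 3.61 CPM. Among the 169 pairs of libraries within groups, none differed by as little as sampling noise (chi-square over degrees of freedom 4.1 to 30.7). Cortical neuron genes were abundant in all mice, with Snap25 at 3270 to 4280 CPM. Markers of the choroid plexus varied between libraries, with Ttr at 0.641 to 1090 CPM. Over the 48 mice, Ttr deviated from its group and sex means with an r of -0.081 to Nnt, -0.15 to Wdfy1 and -0.035 to Ide.

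All 3 genes were stepwise, with a low, a middle and a high level. Wide empty stretches parted the levels of Wdfy1 and Ide. For Nnt a narrower stretch parted the middle from the high level, and no wide stretch parted the low from the middle level. On the log2 scale the largest gap took 0.178 of the range of Nnt, 0.352 of that of Wdfy1 and 0.393 of that of Ide. A share as large occurred in 3.55%, 0.675% and 0.465% of genes tested, in the same order. A mixture of normal distributions, with the number of levels chosen by BIC from 1 to 4, gave 3 levels for each gene. The same procedure gave 1 level for 89.1% of the 20010 genes tested, 2 for 10%, 3 for 0.665% and 4 for 0.25%.

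Nnt stood at 18.9 to 25.1 CPM (median 21.5) in 11 mice, at 27.8 to 32.5 (median 29.99) in 19 and at 37.9 to 44.7 (median 40.7) in 18. Its medians stood in the ratio 1 to 1.39 to 1.89, with steps of 8.48 and 10.7 CPM. Nnt was therefore well above 0 in all 48 mice, with 881 to 2141 reads per library. The low and middle levels were parted by 2.67 CPM, between 25.15 and 27.82, which is hardly wider than the stretch from 22.85 to 25.15 CPM inside the low level. The mouse at 25.15 CPM was Q140 x Msh3-/- male 4, which the mixture placed at the low level with an uncertainty of 0.169.

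Wdfy1 stood at 13.8 to 17.2 CPM (median 15.4) in 9 mice, at 25.1 to 29.1 (median 27.1) in 24 and at 35.4 to 40.8 (median 38.1) in 15. Its steps of 11.7 and 11 CPM were nearly equal, and its medians stood in the ratio 1 to 1.76 to 2.47. Ide stood at 51.2 to 58.1 CPM (median 53.8) in 23 mice, at 79.6 to 90.5 (median 86.4) in 22 and at 109 to 114 (median 110) in 3. The medians of Ide stood in the ratio 1 to 1.61 to 2.04, with steps of 32.6 and 23.6 CPM. Its widest empty stretch, from 58.1 to 79.6 CPM, parted the 23 mice at the low level from all others.

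**Figure D1:**
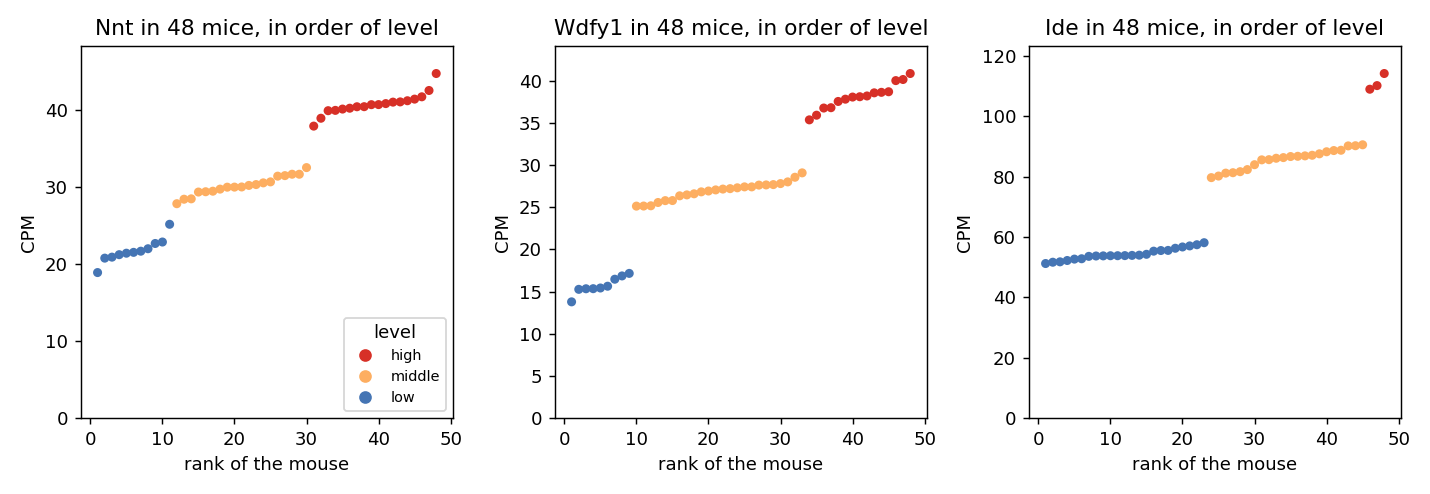
CPM of Nnt, Wdfy1 and Ide (vertical axes, from 0) in 48 mice ordered by level (horizontal axes), 1 point per mouse, coloured by low, middle and high level. Each gene climbs in steps, with Ide empty between 58.1 and 79.6 CPM and between 90.5 and 109 CPM.

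Within a level the mice were close to each other. The coefficient of variation within levels was 3.49% to 7.13% for Nnt, 3.96% to 6.45% for Wdfy1 and 2.49% to 3.9% for Ide. Counting error alone would give 1.34% to 3.65% at these depths. Over all levels together, the SD within genotype and sex on the log2 scale was 0.301 for Nnt, 0.405 for Wdfy1 and 0.372 for Ide. Its median was 0.0847 over the 10039 genes with a mean of at least 10 CPM. Scaled by gene length, Ide had the highest level, with 8.71 to 19.6 FPKM, and Nnt (2.71 to 6.42 FPKM) and Wdfy1 (2.1 to 6.26 FPKM) overlapped over nearly their whole ranges. Each level held mice of both sexes and libraries of several plate columns, 4 to 6 of them for every level but the highest of Ide, whose 3 mice came from 2.

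Genotype groups were described next, with the level of every group given as its lowest, median and highest mouse. Nnt had 25.1, 40.5 and 44.7 CPM in Q140 x Msh3-/- mice, of which 6 of 8 were at the high level. Q140 x Msh3+/- mice had 20.9, 30.8 and 41.4 CPM of Nnt, spread over all 3 levels. In Q140 mice Nnt stood at 18.9, 30.1 and 32.5 CPM, with none at the high level. Thus the highest Q140 mouse lay below 6 of the 8 Q140 x Msh3-/- mice. Msh3-/- mice had 29.99, 40.5 and 42.5 CPM, 6 of 8 at the high level and none at the low one. Msh3+/- mice had 21.2, 30.2 and 40.1 CPM. WT mice had 20.8, 22.7 and 31.6 CPM, with 4 of 7 at the low level and none at the high one.

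Means of Nnt were 37.8 ± 6.64 CPM in Q140 x Msh3-/-, 31.8 ± 8.33 in Q140 x Msh3+/-, 27.9 ± 4.98 in Q140, 38.2 ± 4.83 in Msh3-/-, 31.4 ± 7.00 in Msh3+/- and 25.1 ± 4.37 in WT (SD over the mice of each group). By altered Msh3 alleles, the high level of Nnt held 12 of 16 mice with 2, 6 of 17 with 1 and 0 of 15 with none. The low level held 1 of 16, 4 of 17 and 6 of 15 in the same order. By Q140, 9 of 24 mice with Q140 and 9 of 24 without it were at the high level.

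Wdfy1 had 25.6, 28.2 and 38.7 CPM in Q140 x Msh3-/- mice, 15.3, 27.7 and 38.5 in Q140 x Msh3+/- mice and 13.8, 26.6 and 35.9 in Q140 mice. It had 25.1, 31.5 and 40.1 CPM in Msh3-/- mice, 16.9, 27.6 and 40.8 in Msh3+/- mice and 15.3, 16.5 and 36.8 in WT mice. WT stood apart in its median, since 5 of its 7 mice were at the low level, which held 9 of all 48 mice. With 2 altered Msh3 alleles 0 of 16 mice were at the low level of Wdfy1, with 1 it was 3 of 17 and with none 6 of 15. All groups overlapped.

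Ide had 52.8, 71.1 and 90.5 CPM in Q140 x Msh3-/- mice, 53.9, 85.9 and 114 in Q140 x Msh3+/- mice and 51.8, 82.8 and 110 in Q140 mice. It had 52.2, 55.6 and 88.7 CPM in Msh3-/- mice, 51.2, 57.4 and 90.1 in Msh3+/- mice and 51.6, 53.8 and 86.0 in WT mice. Low and middle mice of Ide occurred in all 6 groups. The 3 mice at the high level all carried the Q140 label: Q140 x Msh3+/- male 1 at 114 CPM, Q140 female 3 at 110 and Q140 x Msh3+/- female 2 at 109. The low level held 9 of 24 mice with Q140 and 14 of 24 without it.

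**Figure D2:**
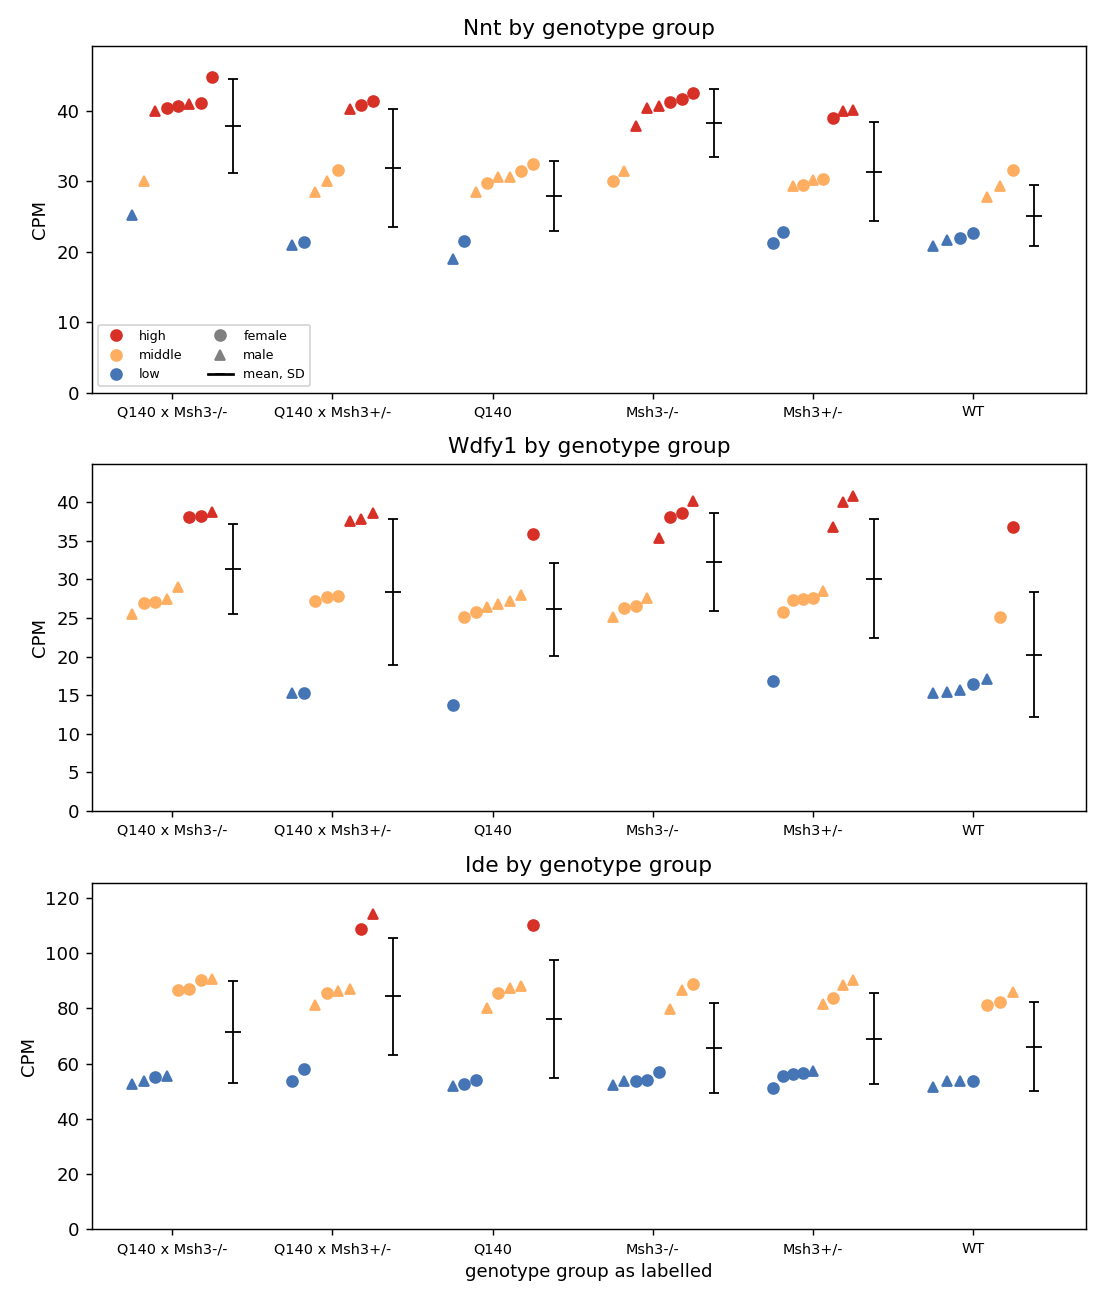
CPM of Nnt, Wdfy1 and Ide (vertical axes, from 0) by labelled genotype group. Each point is a mouse (circles female, triangles male), coloured by level, and bars give the mean and SD of the group. The high level of Nnt holds 12 of 16 mice with 2 altered Msh3 alleles and 0 of 15 with none.

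Changes between groups were tested with edgeR's quasi-likelihood test, fitted over all 20010 genes, and a gene was called when its Benjamini-Hochberg adjusted p lay under 0.05. In the 7 comparisons between genotypes and in males against females, 0 of the 3 genes were called by edgeR. Of all genes, 0.01% were called in Q140 against WT, 0.025% in Msh3+/- against WT, 0.035% in Msh3-/- against WT, 0.015% in Q140 x Msh3+/- against Msh3+/-, 0% in Q140 x Msh3-/- against Msh3-/-, 0.02% in Q140 x Msh3+/- against Q140, 0.045% in Q140 x Msh3-/- against Q140 and 5.56% in males against females. In Q140 x Msh3-/- against Msh3-/- the unadjusted p was under 0.05 for 1361 genes, and DESeq2 called 5.

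Nnt differed most from WT in Msh3-/- mice, at a log2 fold change of 0.60 ± 0.14 (SE, 1.52-fold, edgeR adjusted p = 0.173). DESeq2 (adjusted p = 0.0491) and limma with voom weights (adjusted p = 0.0359) called this change, and over the 12 alternatives the adjusted p ran from 0.0359 to 0.368. In Q140 x Msh3-/- against Q140, whose mice are separate from those, Nnt stood at 0.44 ± 0.14 (edgeR adjusted p = 0.337). With 1 altered allele it stood at 0.32 ± 0.14 against WT and at 0.19 ± 0.14 against Q140 (edgeR adjusted p = 0.475 and 0.964). Wdfy1 stood at 0.67 ± 0.19 in Msh3-/- against WT (adjusted p = 0.538), 0.57 ± 0.19 in Msh3+/- against WT (adjusted p = 0.356) and 0.37 ± 0.20 in Q140 against WT (adjusted p = 0.928). These 3 values share the WT mice, 5 of 7 of which were at its low level. Ide stood between -0.09 and 0.29 in the 7 comparisons, at its lowest in Q140 x Msh3-/- against Q140 (adjusted p = 0.917) and at its highest in Q140 x Msh3+/- against Msh3+/- (adjusted p = 0.787).

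A pooled comparison of the 16 mice with 2 altered Msh3 alleles against the 15 with none, within the same model, was chosen after the levels per mouse had been seen, and it uses the mice of the comparisons above. In it Nnt rose by 0.52 ± 0.10 (SE, 1.43-fold, edgeR adjusted p = 0.00705), where 17 genes were called (0.085%). The call depended on which Q140-labelled mice were kept. Without the 3 mice with Abhd1 in the range of mice without Q140 the change was 0.51 (adjusted p = 0.0384). A second rule, set after the first had been run, left out all 4 mice below the Abhd1 gap, and then the change was 0.48 and was not called (adjusted p = 0.111). All of the 12 alternatives gave a higher level with 2 altered alleles (0.42 to 0.57), and 11 kept the call (adjusted p = 0.000518 to 0.111 over the 12).

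Within sexes, mean Nnt was 40.3 CPM with 2 altered alleles against 27.3 with none in females, and 35.8 against 26.0 in males. Within plate columns, it was 36.2 against 24.8 CPM in column 1 (2 and 2 mice), 37.3 against 25.3 in column 2 (3 and 3), 35.6 against 23.2 in column 3 (3 and 4), 41.5 against 29.3 in column 4 (5 and 1) and 36.6 against 30.6 in column 5 (3 and 2), while column 6 held no mouse with 2 altered alleles. These splits divide the same mice and are no separate support for a comparison chosen after the levels were seen. With plate column as a factor Nnt stood at 0.49 (edgeR adjusted p = 0.0132). Of the 17 genes called in that comparison, 13 lie on chromosome 13, 12 of them within 10 Mb of Msh3 (Msh3 included), and Nnt is the other 1. Wdfy1 stood at 0.47 ± 0.13 and Ide at -0.05 ± 0.12 in the same comparison, neither called (edgeR adjusted p = 0.223 and 0.938).

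The 24 mice with Q140 were also compared with the 24 without it, a comparison likewise added after the levels had been seen, in which 0.035% of genes were called. None of Nnt, Wdfy1 and Ide was called there by edgeR. Ide stood at 0.21 ± 0.10 (adjusted p = 0.864), Wdfy1 at 0.08 ± 0.11 (adjusted p = 0.976) and Nnt at 0.05 ± 0.08 (adjusted p = 0.979). DESeq2 and limma with voom weights called none of the 3 either. The Q140 effect did not differ detectably between Msh3-/- or Msh3+/- and unaltered Msh3 for any of them by interaction terms (edgeR adjusted p = 0.79 to 0.997).

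**Figure D3:**
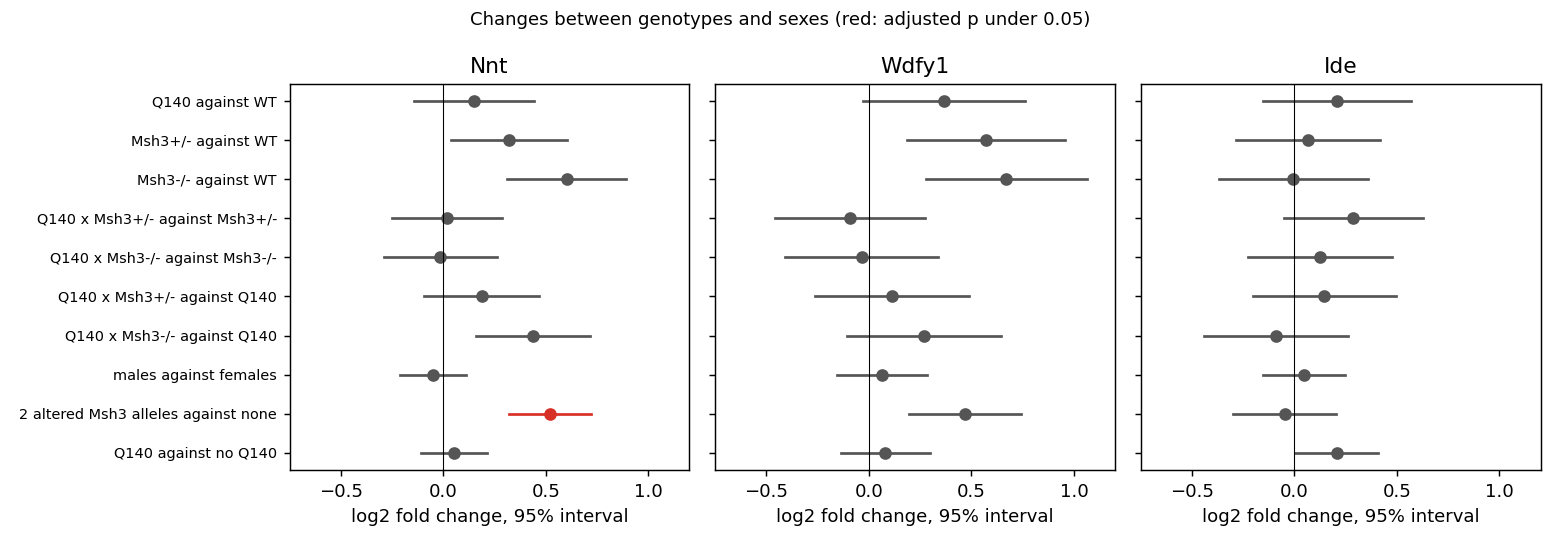
Log2 fold changes (points) with 95% intervals (lines) of Nnt, Wdfy1 and Ide in 10 comparisons, the group named first over the group named second, from edgeR. Red marks an adjusted p under 0.05, reached by Nnt at 0.52 with 2 altered Msh3 alleles against none, and the last 2 comparisons were added after the levels were seen.

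Whether the genes stepped together was read from the number of mice at each combination of levels. Of 27 possible combinations 19 occurred. Nnt and Wdfy1 were at the same level in 22 of 48 mice, where the numbers of mice per level alone would give 17.2. Nnt and Ide were at the same level in 12 mice (15.1 from the numbers alone), and Wdfy1 and Ide in 19 (16.2 from the numbers alone). Opposite ends, low for the first gene and high for the second or the reverse, occurred in 3, 9 and 7 mice for these pairs. Low in all 3 genes were 3 mice, and high in all 3 were 0.

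The pair Nnt and Wdfy1 held most of its excess at both ends. Both were low in 4 mice (2.06 from the numbers alone) and both high in 8 (5.62 from the numbers alone). High mice of Wdfy1 were 7 of 16 with 2 altered Msh3 alleles, 6 of 17 with 1 and 2 of 15 with none, beside 12, 6 and 0 for Nnt. With genotype and sex taken out, Pearson's r of log2 CPM over the 48 mice was 0.0725 for Nnt and Wdfy1, 0.0592 for Nnt and Ide and 0.199 for Wdfy1 and Ide. Such an r is another measure than the number of mice at the same level. Whether genotype accounts for the shared levels was not tested. These r are descriptions, since each gene falls into separate levels.

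**Figure D4:**
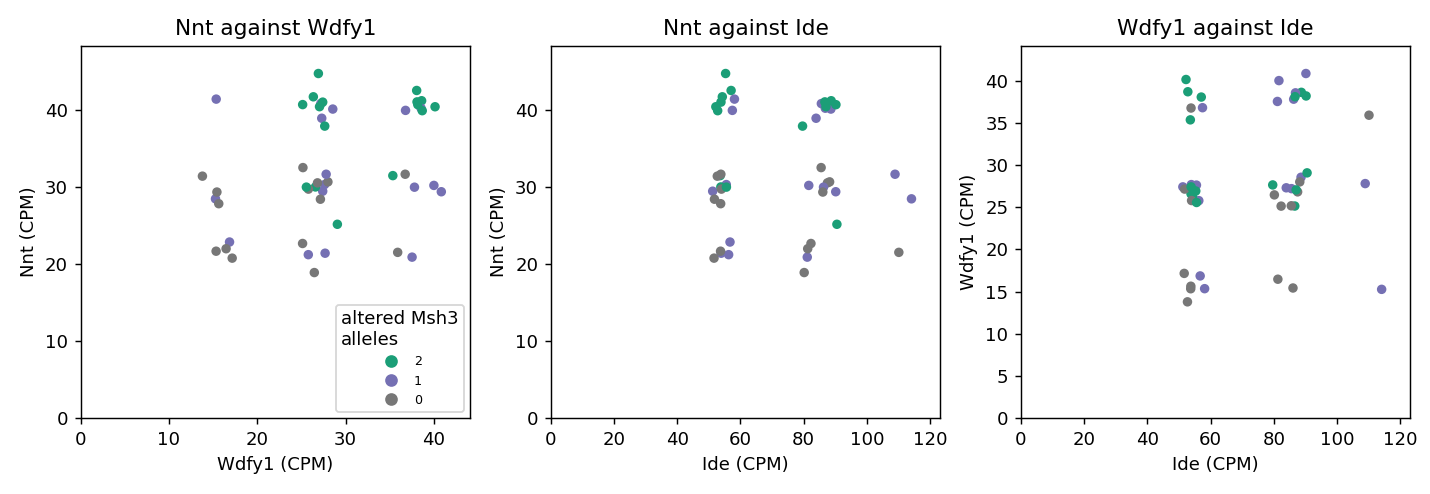
Nnt against Wdfy1, Nnt against Ide and Wdfy1 against Ide (CPM on both axes, from 0), 1 point per mouse, coloured by the number of altered Msh3 alleles (2, 1 or 0). Points form a grid of separate clumps and no single line, with 19 of 27 combinations filled.

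The stem of a column name, the name without its last number, is shared by some mice, and the labels do not say what it stands for. There were 27 stems, 15 of them with at least 2 mice, which gave 28 pairs of mice with a shared stem. Ide was at the same level in 19 of these 28 pairs (67.9%), against 42.5% of the 1100 other pairs. For Nnt it was 11 of 28 (39.3% against 33.5%) and for Wdfy1 10 of 28 (35.7% against 37%). All mice of a stem were at 1 level in 9 of 15 stems for Ide, 5 for Nnt and 4 for Wdfy1.

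Single stems show both kinds. The 3 mice of stem Mh3Q56 had 52.2 to 55.6 CPM of Ide, and the 3 of Msh3Q9 had 51.2 to 58.1, although Msh3Q9 spans 3 genotype groups. Stem Mh3Q44 held an Ide mouse at 57.4 CPM and another at 114. For Nnt, the 3 mice of Mh3Q40 ran from 21.2 to 42.5 CPM and took all 3 levels. For Wdfy1 the 3 mice of Msh3Q8 did so, from 15.6 to 35.4 CPM. The share of variance between stems, as an intraclass correlation of the deviations from genotype and sex means, was 0.443 for Ide, above 92.8% of genes tested, 0.156 for Wdfy1 (above 62.4%) and -0.0309 for Nnt (above 35.7%). Over all genes its median was 0.0701.

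**Figure D5:**
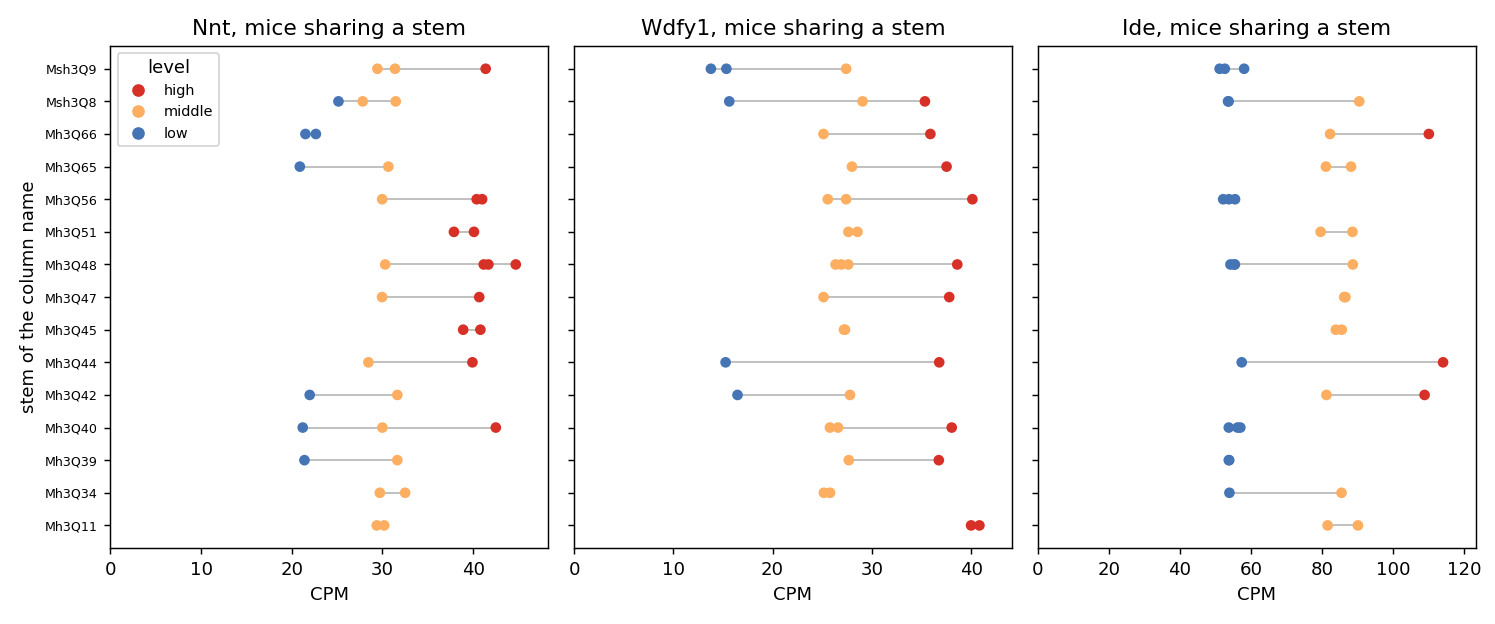
CPM of Nnt, Wdfy1 and Ide (horizontal axes, from 0) in mice that share a stem, 1 row for each of 15 stems, points coloured by level and a grey line from the lowest to the highest mouse. Ide has 9 rows with a single level, Nnt 5 and Wdfy1 4.

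Genes with the most similar pattern were ranked by Pearson's r of log2 CPM over the 48 mice, after genotype and sex were taken out, as a measure of likeness without a test. Libraries, depth and stems are shared by all such values. For Ide, Btaf1 stood first at an r of 0.906 (Spearman's rho 0.891). Btaf1 encodes an ATPase that removes the TATA-binding protein from DNA, and it starts 342.7 kb from Ide on the same chromosome. It had 48.3 to 73.5 CPM in mice at the low level of Ide, 66 to 96.5 at the middle level and 80.4 to 90.7 at the high level, so its ranges overlapped, with medians of 55.6, 74.3 and 84 CPM. Cpeb3, a regulator of mRNA translation that lies between them, had an r of only 0.0876, and a gene the files list as 5-Mar, also between them, had -0.102.

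The other genes closest to Ide were Rimbp2, a protein of the presynaptic active zone (0.627), Adra2a, the alpha-2A adrenergic receptor (-0.564), Cartpt, a neuropeptide precursor (-0.557), and Zdhhc22, a palmitoyltransferase (0.54). Rpl10-ps6, a pseudogene within Ide, had a higher r of 0.672 than these 4 but was not ranked, at a mean of 0.518 CPM. Its counts may hold reads of Ide or of ribosomal protein genes. Fgfbp3, a carrier of fibroblast growth factors known to share copy number changes with Ide, lies 351.2 kb from it by their lowest coordinates. Its median was 3.97 CPM at the low level of Ide, 5.21 at the middle level and 6.55 at the high level, but its ranges overlapped (3.01 to 15.8, 3.46 to 23.9 and 5.97 to 8.61 CPM), with an r of 0.371.

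For Nnt the closest gene, Fam63b, which encodes a deubiquitinating enzyme, reached an r of 0.577 and ranged over 87.7 to 97.3 CPM at the low level of Nnt, 88 to 102 at the middle and 92.2 to 105 at the high level. She, an SH2 domain adaptor (0.528), Exoc7, an exocyst subunit (-0.506), Gpc5, a glypican (0.506), and Parp4, a poly(ADP-ribose) polymerase (0.501), followed. For Wdfy1 they were Chtop, an mRNA export factor (-0.564), Ube2f, an enzyme of neddylation (-0.561), Khdrbs1, the RNA-binding protein Sam68 (-0.547), Mycbp, a partner of Myc (0.543), and Nqo2, a quinone reductase (-0.543). None of these 10 genes had 3 levels. An absolute r over 0.5 was reached by 0.045% of other genes for Nnt, 0.115% for Wdfy1 and 0.045% for Ide. Whether this is more than unrelated genes would give was not tested. The 3 tested genes nearest on each side of Nnt had an r between -0.101 and 0.139, and those of Wdfy1 between -0.282 and 0.183. Of the neighbours of Nnt, Paip1, a regulator of translation (chr13:119428601-119458218, mean 53.2 CPM), and Tmem267 (mean 1.43 CPM) had 3 levels of their own. Their r to Nnt was -0.101 and 0.0362.

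Other genes of the same pathways had a single level about as often as the 89.1% of all genes tested. Of the 19 other tested genes of mitochondrial NADPH and redox metabolism, which include Idh2, Gsr, Prdx3 and Sod2, 16 had 1 level, Gsr, the glutathione reductase, had 4 within 20.3 to 25 CPM, and none was called in the 9 comparisons of genotypes, planned or added. In 2 altered Msh3 alleles against none their median log2 fold change was -0.0154, against -0.00383 over all genes, and 3 of 19 lay above 0. In Msh3-/- against WT, Msh3+/- against WT and Q140 against WT 9 of 19 lay above 0 in each, with medians of -0.00615, -0.0186 and -0.000982. Of 17 other peptide-degrading proteases and insulin signalling genes, 14 had 1 level and none had 3. Grb10, an inhibitor of the insulin receptor, rose in males against females by 0.11 ± 0.03 (edgeR adjusted p = 0.00869), and Nln, the protease neurolysin, stood at 0.06 ± 0.03 (adjusted p = 0.286). Grb10 was the 1 gene of 17 called between the sexes, a share near the 5.56% of all genes called there.

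The next list held 27 other genes of FYVE domain proteins, endosomal lipids and Toll-like receptor signalling (Tlr3, Tlr4 and Ticam1). Of these 25 had 1 level, and Wdfy4, at 2.29 to 4.38 CPM, had 3. Zfyve28, a FYVE protein that acts on receptor sorting, rose in males against females by 0.16 ± 0.03 (edgeR adjusted p = 0.00154), and Wdfy3, an autophagy adaptor, stood at -0.05 ± 0.02 (adjusted p = 0.0997). Zfyve28 was the 1 gene of 27 called between the sexes, beside the 5.56% of all genes. Neither list held a gene called between genotypes. Of 8 further genes named in comparisons of C57BL/6 stocks 5 were tested, and none was called in any comparison. Of these 5, Fgfbp3 had 2 levels and the other 4 had 1. Their SD within genotype and sex on the log2 scale was 0.063 for Cyfip2, a regulator of actin (1420 to 1740 CPM), 0.0679 for Trappc9 and 0.134 for Snap29. It was larger for Fgfbp3 (0.613) and for Crb1 (0.635, at a mean of 0.49 CPM).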

How the data were processed

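Cortex RNA of 48 mice was sequenced from stranded libraries. Per the submitters' processing notes the tools were STAR 2.7.5c, SAMtools 1.10 and HTSeq 0.12.3 with GRCm38. The annotation release and strand setting are not given in the sources used here. The deposited counts are raw reads per gene. The authors' FPKM values are the same genes scaled by length and library total.

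Counts were fitted in R 4.3.3 with edgeR 4.0.16 (TMM, filterByExpr, genotype and sex, 20010 genes), with Benjamini-Hochberg adjustment. CPM on the log2 scale used a prior count of 1, and levels came from mclust 6.1.1. Alternatives used DESeq2 1.42.0 and limma 3.58.1, the latter also on log2 FPKM plus 0.1 or 1. The scripts were tested on simulated data. Genes named are the 3 members, the 5 most similar genes and 3 tested neighbours on each side of each member, and from each list the 2 smallest p where any member was called. Btaf1, Fgfbp3 and Rpl10-ps6 by level of Ide, Gsr, Wdfy4 and the 5 tested C57BL/6 stock genes were singled out after their values were seen. Members, lists and tests were chosen with earlier results of these data known. Adjusted p-values are not corrected over comparisons.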

Additional observations from a re-analysis of the deposited data

How the results depend on the processing

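No mouse moved to another level with RLE size factors, log2 FPKM plus 0.1 or a prior count of 5. Labelled replicate numbers did not pair mice (mean r of deviations -0.0312 over 115 pairs with the same sex and number), and the replicate block gave 601 called genes in males against females and 4 in Q140 against no Q140. Leaving out mice by Abhd1 was done under both rules described above, the second set after the first had been run. For Nnt with 2 altered Msh3 alleles, leaving out 4 mice gave 0.4758 (adjusted p = 0.1111) and 10 called genes. That setting also gave 5 called genes in Q140 x Msh3+/- against Msh3+/-, 2 in Q140 x Msh3-/- against Msh3-/- and 4 in Q140 against no Q140, and leaving out 3 mice gave 2 in Q140 x Msh3-/- against Msh3-/-. DESeq2 called 12 genes in Msh3+/- against WT, 14 in Msh3-/- against WT, 5 in Q140 x Msh3-/- against Msh3-/-, 31 with 2 altered Msh3 alleles and 12 in Q140 against no Q140, and voom called 14, 37 and 13 in Msh3-/- against WT and the pooled comparisons. FPKM plus 0.1 or 1 gave 4 in Q140 against no Q140. Plate column as a factor gave 1 in Msh3+/- against WT, 1 in Q140 x Msh3+/- against Msh3+/-, 12 in Q140 x Msh3-/- against Msh3-/- and 4 in Q140 against no Q140. Nnt in Msh3-/- against WT became called with DESeq2 (0.6037) and voom (0.6441). Values near 0 that were never called changed sign. Ide in Msh3-/- against WT stood at 0.03083 (voom), 0.0286 (replicate block), 0.03219 (random block for the stem) and 0.1037 (plate column). Nnt in Q140 x Msh3+/- against Msh3+/- stood at -0.01371, -0.003854, -0.003983 and -0.01591 in the same order, and Wdfy1 there at 0.08962 (plate column). In Q140 x Msh3-/- against Msh3-/-, Nnt stood at 0.005758 (voom) and 0.05268 (without 3 libraries apart on the second principal component), and Wdfy1 at 0.009359 (voom). Wdfy1 in males against females stood at -0.001299 (plate column). The cause of these changes was not tested. Alternatives leaving out mice and plate column, and both pooled comparisons, were chosen after seeing the data.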

Other observations

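Other stepped genes were ranked by the separation of their levels among 867 genes with a mean of at least 5 CPM and more than 1 level, and those named here were chosen after their values were seen. Msh3 itself had 3 levels with 15, 17 and 16 mice, the numbers of mice with 0, 1 and 2 altered alleles. Ehmt1, a histone methyltransferase gene on chromosome 2, had 39 mice at its lower and 9 at its higher level, between 37.4 and 56.8 CPM. Rpl29, a ribosomal protein gene on chromosome 9, had 3 mice at a level that reached down to 1.05 CPM and 45 at a level that reached up to 45.2 CPM. Pnn, a splicing-associated gene on chromosome 12, had 45 mice at its lower and 3 at its higher level, between 103 and 178 CPM. The same split of 45 and 3 mice was found for other genes on several chromosomes, among them Gt(ROSA)26Sor, Snhg4, Rbm12b1, Rbm12b2, Snhg20 and Pcf11. The step is therefore not particular to Pnn. Whether the same 3 mice were high in each was not tested.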
